A study of Homo sapiens with 6 samples.

Results

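The comparison described here set 2 arrays of U2OS cells transfected with siRNA against the histone variant H3.Y against 2 arrays of the same line transfected with siRNA against luciferase. These were 4 of the 6 arrays of the series. The genes were taken from every probe set whose annotation named exactly 1 gene, which gave 19460 of 33297 probe sets and 18417 genes. U2OS is an established human osteosarcoma line. Cells of both groups received their siRNA in 2 transfections with a lipid reagent and were harvested at day 4. Luciferase, an insect enzyme, has no counterpart in human cells, so its siRNA stood for the handling of the cells. The remaining 2 arrays, from cells with siRNA against H3.X and H3.Y together, entered the fit for the estimate of the spread. They are quoted only beside a few genes and lists. The labels name neither the siRNA sequences nor how the biological replicates were kept apart, and each p-value therefore rests on differences among arrays that may be technical.

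Histone H3 is one of the core proteins around which DNA is wound. Most of it is made in S phase from replication-dependent genes, while variants made from separate genes can replace it outside replication. H3.Y is a variant found in primates, with transcripts described in testis and in some tumour lines, and the comparison asks which transcripts differ when it is targeted. The targeting itself was not readable, because 0 probe sets were named for H3Y1, which encodes H3.Y, or for H3Y2, which encodes H3.X.

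The arrays shared a scale, with medians from 5.10 to 5.14 log2 units. Across probe sets the luciferase pair correlated at r = 0.991 and the H3.Y pair at r = 0.986, and arrays of different groups at 0.979 to 0.987. Markers of mesenchymal cells fitted the labelled line in part. Vimentin (VIM) lay at 10.69 to 10.95 and osteonectin (SPARC) at 9.94 to 10.50 log2 units over the 4 arrays, whereas the osteoblast factor RUNX2 lay at 5.05 to 5.39. Of the defining markers of other cell types, the leukocyte antigen PTPRC lay at 1.89 to 2.29, the endothelial PECAM1 at 3.35 to 3.45 and the epithelial EPCAM at 4.65 to 5.14 on the brightest probe set of each, while the keratins KRT8 and KRT18 were between 9.73 and 11.22. A second EPCAM probe set lay at 4.96 and 5.15 against 3.34 and 4.34 without passing. In the 6 marker lists, 0 genes were called. All 7 epithelial markers were lower, with differences of -0.81 to -0.01 and summed levels of 47.3 and 46.3 on the luciferase arrays against 43.3 and 44.7, among them KRT8 at -0.54 and KRT18 at -0.72. Their part in the results was not tested. In bulk RNA, fewer cells of a kind and less RNA per cell cannot be told apart.

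Over the 18417 genes, the difference between the group means had a median of 0.01, an SD of 0.36 and 5th and 95th percentiles of -0.59 and 0.51 on the log2 scale. A probe set was called where limma's adjusted p was under 0.05. Of all probe sets 28 were called higher (0.0841%) and 65 lower (0.195%), and 13.9% had an unadjusted p under 0.05. Counts of probe sets hold repeats, since 975 probe sets equalled another on all arrays and some of these were called. Counting 1 probe set per gene, the one with the highest mean, 19 genes were called higher (0.103%) and 48 lower (0.261%), and a further 4 were called lower only on a dimmer probe set. The smallest called rise was 1.05 and the smallest called fall was -1.04, so every call exceeded a 2-fold change. As a wider description, 154 genes were at least 2-fold higher with no overlap between the groups' arrays (0.836%) and 226 at least 2-fold lower (1.23%). Over all probe sets the same rule took 239 higher (0.718%) and 393 lower (1.18%). Lack of overlap alone was common, at 23.6% of genes higher and 23.3% lower. The 2-fold lower genes were the brighter ones, with a median luciferase level of 7.65 against 5.64 for the 2-fold higher genes and 5.78 for all genes. That level is a term of the difference by which the genes were chosen, and signals near the floor have little room to fall. The contrast in level is therefore partly set by the selection. When genes were ranked by mean level and split into 4 groups of nearly equal size, 15 genes of the dimmest group were 2-fold higher and 2 lower, and 41 of the brightest group were higher and 100 lower.

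**Figure D1:**
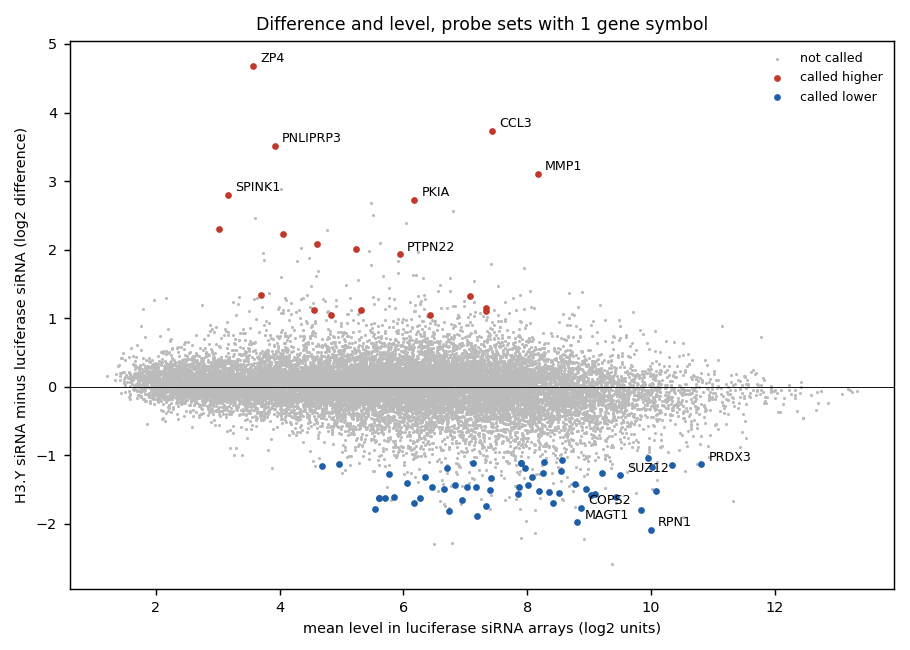
Difference between H3.Y siRNA and luciferase siRNA (vertical axis, log2) against the mean luciferase level (horizontal axis, log2 units), 1 point per probe set with 1 gene symbol. Red points are the 19 genes called higher and blue points the probe sets called lower. The called rises reach 4.68 and the called falls reach -2.09.

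One H3.Y array carried larger differences than the other. Among the 2-fold higher genes replicate 1 lay above replicate 2 in 140 of 154 (90.9%), with a median distance from the luciferase mean of 1.60 against 1.00. Among the 2-fold lower genes replicate 1 was the farther one in 191 of 226 (84.5%), at -1.50 against -1.04. The calls rested on these few arrays. Without H3.Y replicate 1 the fit called 4 probe sets, all higher, which were CCL3 and 3 probe sets that carried no single gene name. Without H3.Y replicate 2 it called 629, which held 92 of the 93. Leaving out either luciferase array, or either array of the combined knockdown, left 0 calls in limma, where an unadjusted p under 0.05 was reached by 2899 to 3736 probe sets. For the combined knockdown, leaving out 1 array is the same fit as leaving out both, since an array alone adds no estimate of the spread. The 3 called probe sets without a single gene name shared a difference of 3.67 in the main fit and may be 1 measurement. With the replicate number as a block, 53 of the 93 probe sets were called, and adjusted p-values of the named genes lost were 0.0514 to 0.0606 (limma). Of the genes called higher 10 of 19 passed with the block, and those that did not included FBXO32, PAX8-AS1, VEGFC, ACSL5, CLEC3A, KIF9, PDE4DIP and WDTC1. Of the 52 called lower 28 passed, and the 24 that did not were PLAU, COL6A3, ANXA3, LCLAT1, PSMA5, FBXO28, YWHAE, ZWINT, H3C1, CCNI, TCF19, PSIP1, PRDX3, NOX4, PPP1R14C, TTL, TIMMDC1, SLC25A24, RNF13, PGM2, SYT2, ZNF678, DLEU2 and RAI14.

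The genes that rose are given by where their proteins act, beginning outside the cell and at its surface. The chemokine CCL3, which attracts monocytes and neutrophils, lay at 7.41 and 7.45 log2 units on the luciferase arrays and at 11.53 and 10.79 on the H3.Y arrays, and near-identical gene copies may share its probe set. MMP1, the interstitial collagenase that cleaves fibrillar collagen, went from 8.07 and 8.27 to 11.61 and 10.94. Both genes were thus already measurable in control cells and among the bright signals after H3.Y siRNA. ZP4, a glycoprotein of the egg coat, lay at 3.55 and 3.59 against 8.96 and 7.55. The pancreatic lipase relative PNLIPRP3 lay at 4.01 and 3.83 against 8.01 and 6.86, and the trypsin inhibitor SPINK1 at 3.01 and 3.34 against 6.32 and 5.62. Their control levels lay within the range of the dimmest of the 4 groups by level, which ended at 4.25 log2 units. VEGFC, a growth factor of lymphatic vessels, rose by 1.15 ± 0.14, from 7.37 and 7.30 to 8.60 and 8.38. Here and below ± is limma's SE, with n = 2 arrays per group and the spread estimated over all 6 arrays. The C-type lectin CLEC3A rose by 1.12 ± 0.13. LRFN5, a synaptic adhesion protein, rose by 2.08 ± 0.25 from 4.71 and 4.51 to 7.06 and 6.32. HCAR3, a receptor for hydroxylated fatty acids, lay at 3.07 and 2.97 against 5.47 and 5.17, and its near-identical neighbour HCAR2, the niacin receptor, at 4.24 and 4.32 against 6.44 and 5.80 without passing (1.84 ± 0.28, adjusted p = 0.0717, limma). Whether these probe sets read each other's transcripts was not tested.

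Other genes that rose act inside the cell. PKIA, a peptide inhibitor of protein kinase A, lay at 6.05 and 6.31 in control cells and at 9.26 and 8.55 after H3.Y siRNA. FBXO32, the ubiquitin ligase subunit known as atrogin-1, rose from 5.07 and 5.41 to 7.56 and 6.93. PTPN22, a phosphatase known from lymphocyte signalling, rose by 1.93 ± 0.21, from 5.69 and 6.20 to 7.94 and 7.82. ACSL5, which activates long-chain fatty acids, rose by 1.32 ± 0.16 with an adjusted p of 0.0497 (limma). Further rises included those of CCDC92 (1.33), the kinesin KIF9 (1.11), PDE4DIP (1.11), which anchors phosphodiesterase at the Golgi and centrosome, and WDTC1 (1.05). The long noncoding RNA PAX8-AS1 rose by 2.22 ± 0.23. In each of these genes both H3.Y arrays lay above both luciferase arrays. Selection by the call favours such separation, so it is no separate support.

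**Figure D2:**
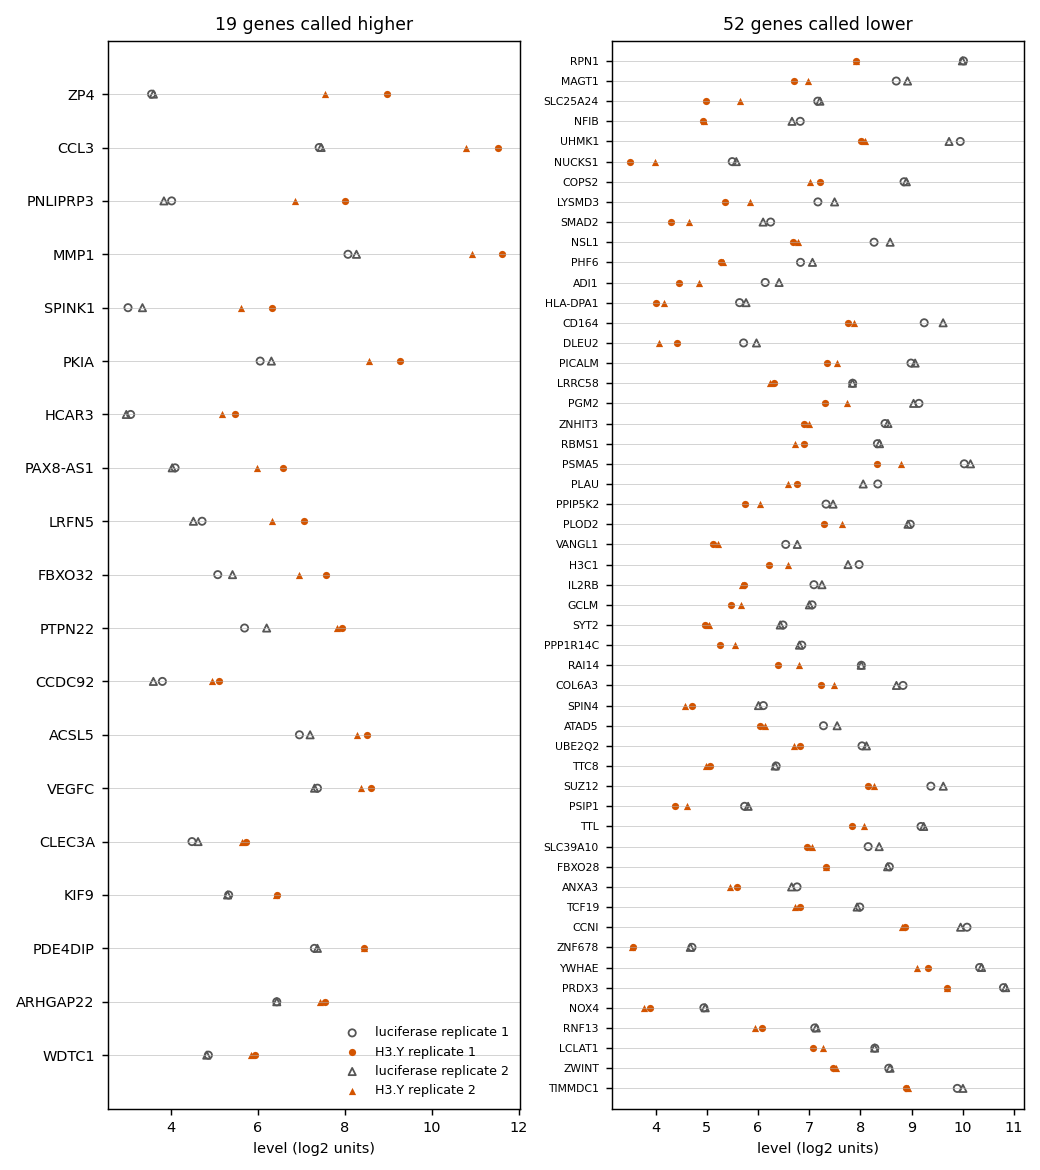
Levels (horizontal axis, log2 units) of the 19 genes called higher and the 52 called lower on any probe set, 1 row per gene in order of the difference, with open symbols for luciferase arrays and filled ones for H3.Y arrays. The arrays of the groups are apart in every row, which selection by the call favours. Among the largest rises replicate 1 of H3.Y siRNA lies to the right of replicate 2.

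Promoter sequences are shown for 3 of the higher genes because they hold the letters TGANTCA, the core that the AP-1 transcription factors recognise, whose shares among the 2-fold higher and the called genes are given further on. PNLIPRP3 was called, and MMP10 (stromelysin 2) and the cytokine subunit IL23A were at least 2-fold higher without being called. Each window runs from 250 bases before to 50 bases after the annotated start, from RefSeq on GRCh38.p14, at chr10:116427597-116427896 on the plus strand, chr11:102780579-102780878 on the minus strand and chr12:56338634-56338933 on the plus strand. Capitals mark TGANTCA and, in MMP10 and IL23A, also TATAAA, the core of a TATA box.
PNLIPRP3: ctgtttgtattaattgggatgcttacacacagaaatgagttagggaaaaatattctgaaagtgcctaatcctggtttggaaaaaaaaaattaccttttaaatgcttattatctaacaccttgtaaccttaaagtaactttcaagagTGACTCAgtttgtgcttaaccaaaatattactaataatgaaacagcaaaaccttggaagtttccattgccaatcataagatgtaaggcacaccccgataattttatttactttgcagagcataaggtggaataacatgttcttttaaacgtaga
MMP10: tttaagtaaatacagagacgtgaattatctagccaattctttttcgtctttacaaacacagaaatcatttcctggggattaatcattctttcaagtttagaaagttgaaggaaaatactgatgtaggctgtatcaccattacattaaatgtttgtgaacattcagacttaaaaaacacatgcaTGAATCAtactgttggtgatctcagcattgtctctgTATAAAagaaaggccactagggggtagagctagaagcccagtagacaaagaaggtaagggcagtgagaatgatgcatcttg
IL23A: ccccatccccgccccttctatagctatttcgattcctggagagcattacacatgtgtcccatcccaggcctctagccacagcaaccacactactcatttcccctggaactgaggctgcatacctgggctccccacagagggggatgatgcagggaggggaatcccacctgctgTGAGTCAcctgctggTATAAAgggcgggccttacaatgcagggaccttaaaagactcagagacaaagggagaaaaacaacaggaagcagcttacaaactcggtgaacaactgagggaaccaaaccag
A match is a run of letters and not a measured binding site. MMP10 lay at 4.27 and 4.48 on the luciferase arrays and at 5.73 and 5.62 on the H3.Y arrays (1.30 ± 0.19 SE, adjusted p = 0.0672, limma). IL23A lay at 6.33 and 6.29 against 8.40 and 7.39.

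Single genes of plasminogen activation and of the collagen matrix were among those that fell. PLAU, the urokinase that activates plasminogen, fell by 1.53 ± 0.17 (limma's SE, n = 2 per group), from 8.34 and 8.05 to 6.75 and 6.59 log2 units. COL6A3, a chain of the microfibrillar collagen VI, lay at 8.83 and 8.70 against 7.24 and 7.47, and PLOD2, the lysyl hydroxylase that prepares collagen for cross-linking, at 8.97 and 8.93 against 7.29 and 7.64. ANXA3, a membrane-binding annexin, fell by 1.19 ± 0.14. These 4 genes lay lower on both H3.Y arrays than on either luciferase array, while MMP1 lay higher, as selection by the call favours. Of the 4, PLAU, COL6A3 and ANXA3 did not pass with the replicate number as a block. In the families around them single genes stood apart. Of 26 matrix metalloproteinases and their inhibitors 1 was called, the median was 0.05, and MMP9, the gelatinase, lay at 6.81 on both luciferase arrays against 10.23 and 8.51 (2.56 ± 0.53, adjusted p = 0.12, limma). MMP3, a protease already among the brightest signals, lay at 11.72 and 11.85 against 12.62 and 12.39. Of 43 collagens COL6A3 alone was called, and the other 42 lay between -0.77 and 0.56. ADAM and ADAMTS proteases had a median of 0.06, with 0 of 43 called. At least 2-fold higher were 3 (6.98%, against 0.836% of all genes), namely ADAMTS9 (1.46), ADAM19 (1.39) and ADAM12 (1.25).

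In the secretory pathway the falls lay on single genes. The oligosaccharyltransferase, which attaches sugar chains to proteins as they enter the endoplasmic reticulum, had 11 measured subunits. Of these 2 were called lower, against 0.261% of all genes. RPN1, a scaffold subunit, lay at 10.01 and 9.99 against 7.91 and 7.92, and MAGT1, an oxidoreductase subunit, at 8.70 and 8.92 against 6.70 and 6.97. As selection by the call favours, their groups were separated on every array and the replicates lay close together. The other 9 subunits lay between -0.46 and 0.15, among them the catalytic STT3A (-0.46 ± 0.13) and STT3B (0.08 ± 0.16). SEC23A, a coat subunit of vesicles leaving the endoplasmic reticulum, was not called at 8.68 and 8.87 against 6.63 and 7.42 (-1.75 ± 0.26, adjusted p = 0.068, limma), and the median of its list of 30 coat and cargo receptor genes was -0.11. CD164, a sialomucin, fell by 1.61 ± 0.17 and PICALM, a clathrin adaptor, by 1.58 ± 0.14. LCLAT1, which remodels cardiolipin precursors, fell by 1.10, and the zinc importer SLC39A10 by 1.26.

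Other complexes and families, picked with earlier results of these data known, also held single called members among others that were not. Over all genes 0.103% were called higher and 0.261% lower. COPS2, a subunit of the COP9 signalosome that removes NEDD8 from ubiquitin ligases, lay at 8.85 and 8.90 against 7.21 and 7.01, and the other 9 subunits lay between -0.36 and 0.25. PSMA5, a subunit of the proteasome core, lay at 10.03 and 10.15 against 8.32 and 8.80, and the other 44 proteasome genes had a median of -0.13. Of 26 Polycomb genes, which silence chromatin through histone H3 lysine 27 methylation or H2A ubiquitination, SUZ12 fell by 1.29 ± 0.15 from 9.37 and 9.62 to 8.14 and 8.26, while its partners EZH2 (-0.17) and EED (0.13) lay near 0. UBE2Q2 (-1.31) was the 1 called gene of 24 ubiquitin-conjugating enzymes. The F-box family had FBXO32 higher and FBXO28 lower (-1.22), and the other 53 lay between -0.71 and 0.69. Of 4 nuclear factor I genes, NFIB fell by 1.81 ± 0.14 and NFIA lay at 6.39 and 6.80 against 5.10 and 5.64 (-1.22 ± 0.22, adjusted p = 0.0976, limma), with NFIC at -0.04 and NFIX at 0.17. All 14-3-3 proteins, adaptors that bind phosphorylated partners, were lower (7 of 7, median -0.23). YWHAE fell by 1.14 ± 0.14 on 1 probe set, and its brighter probe set at 10.88 and 10.98 against 10.04 and 9.78 did not pass.

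**Figure D3:**
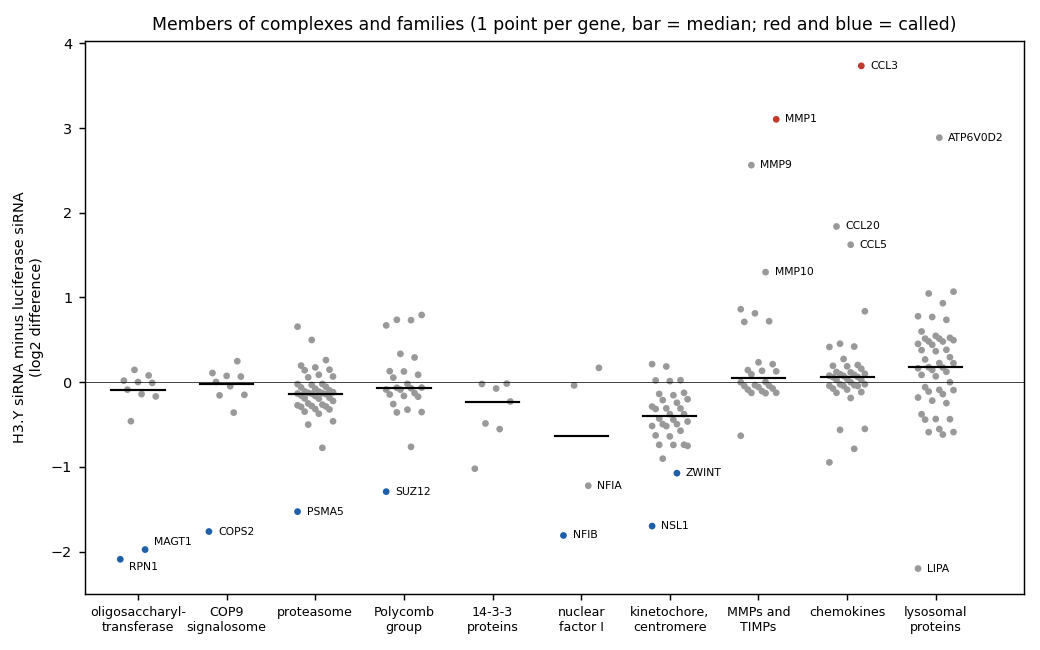
Difference between H3.Y siRNA and luciferase siRNA (vertical axis, log2) for each measured gene of 10 complexes and families, with the median as a bar and called genes in red (higher) or blue (lower). In 6 of them the genes called lower lie below all other members, which reach -1.22 among nuclear factor I genes and -0.90 among kinetochore genes. In the metalloproteinases and chemokines a few genes lie far above the median.

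Leaving out 3 lists put together after the values were seen, 117 lists and families were counted, of which 97 had a median between -0.2 and 0.2, 16 a median at or under -0.2 and 4 at or over 0.2. Of these lists 27 held exactly 1 called gene, 3 held 2 and 0 held more. The 117 were themselves chosen with earlier results of these data known, and some are small families holding a called gene. How thinly calls spread over them therefore depends in part on how the lists were made. Over all genes 9661 were higher and 8755 lower. In 45 lists 0 genes were called and 0 were 2-fold apart without overlap. Large families near the median of all genes were the 66 cytosolic ribosomal proteins (-0.01), the 73 mitochondrial ribosomal proteins (-0.02), 85 potassium channels (-0.01), 324 solute carriers other than mitochondrial ones (0.00), 480 zinc finger genes with a ZNF symbol (0.04), 360 olfactory receptors (0.01) and 174 microRNA genes (0.04). Among these solute carriers SLC39A10 was the 1 called, and the difference farthest from 0 was that of the iron exporter SLC40A1, at 6.26 and 6.74 against 3.82 and 4.60 (-2.29 ± 0.29, adjusted p = 0.0508, limma). The transferrin receptor TFRC, which takes up iron and is often used as a reference gene, lay at 11.24 and 11.42 against 9.26 and 10.07 (-1.67 ± 0.26, adjusted p = 0.07625).

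**Figure D4:**
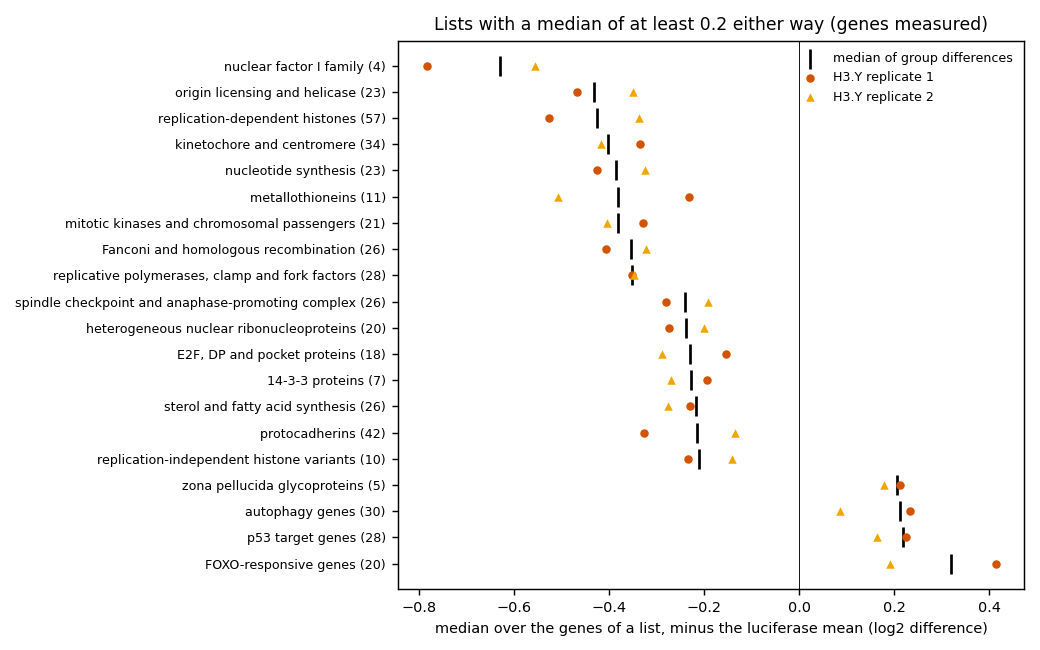
Median difference from luciferase (horizontal axis, log2) of the 20 lists with a median of at least 0.2 either way among the 117, without the 3 lists put together after the values were seen, with the number of measured genes in brackets, bars for the group difference and points for each H3.Y array. Replication, mitosis and histone lists lie at the lower end on both arrays, and the 4 lists on the right include autophagy and p53 target genes.

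Genes of DNA replication were lower together, with small differences and 0 calls in 4 lists. The 23 origin licensing and helicase genes, which mark and open replication origins, had a median of -0.43 (-0.47 on H3.Y replicate 1 and -0.35 on replicate 2), and 21 were lower. GINS2, a subunit of the replicative helicase, lay at 8.01 and 7.75 against 5.52 and 6.67, and ORC2, of the origin recognition complex, at 8.11 and 8.36 against 6.65 and 7.53. Neither passed (adjusted p = 0.11 and 0.173, limma), although their arrays did not overlap. Of 28 polymerase, clamp and fork genes 23 were lower (median -0.35), with the primase PRIM1 at -0.79 and POLE4 at 0.87 as the extremes. Of 23 nucleotide synthesis genes 22 were lower (median -0.39), with the ribonucleotide reductase subunit RRM2 at 8.38 and 8.63 against 6.96 and 7.73. The 26 Fanconi and homologous recombination genes, which repair cross-links and broken forks, had a median of -0.35 with 25 lower. The 25 genes of mismatch and excision repair had a median of 0.00, with 12 higher and 13 lower. ATAD5, which unloads the replication clamp, fell by 1.32 ± 0.15. TCF19, a gene of the G1 to S transition, fell by 1.19 on its brightest probe set.

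Replication-dependent histone genes, whose mRNA is made in S phase, had a median of -0.43 over 57 genes, 46 of them lower. Of these 1 was called and 7 (12.3% of the 57) were at least 2-fold lower without overlap. Over all genes the shares were 0.261% and 1.23%. H3C1, a canonical histone H3 gene, lay at 7.97 and 7.76 against 6.22 and 6.59 and passed narrowly (-1.46 ± 0.18, adjusted p = 0.04998, limma). The linker histone H1-1 lay at 9.41 and 9.45 against 7.07 and 8.40, and H2BC7 at 8.17 and 8.20 against 6.51 and 7.33. On each of these 3 genes H3.Y replicate 1 was the lowest array. Because genes of 1 histone class resemble each other closely, a probe set may read several. The 10 measured replication-independent variants had a median of -0.21, 0 of them called, with macroH2A1 (MACROH2A1) at -0.39 and H2AJ at 0.19. The H3C1 promoter is shown as the 1 called histone gene, at chr6:26020201-26020500 on the plus strand, RefSeq, GRCh38.p14, with the letters CCAAT and TATAAA in capitals. In all 14237 genes with a window, 36.3% held CCAAT and 1281 held TATAAA.
H3C1: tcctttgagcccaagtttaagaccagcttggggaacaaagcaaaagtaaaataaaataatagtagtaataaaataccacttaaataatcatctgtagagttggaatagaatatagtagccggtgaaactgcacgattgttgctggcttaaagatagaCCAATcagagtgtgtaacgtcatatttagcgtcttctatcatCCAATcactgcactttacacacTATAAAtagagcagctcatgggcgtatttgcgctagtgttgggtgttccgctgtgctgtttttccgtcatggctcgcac

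Lists of mitotic genes differed in their medians. Of 34 kinetochore and centromere genes, which tie chromosomes to the spindle, 29 were lower and the median was -0.40. In this list 2 were called lower, against 0.261% of all genes. NSL1, of the MIS12 complex, lay at 8.27 and 8.58 against 6.67 and 6.78, and ZWINT, a partner of the outer kinetochore, at 8.55 and 8.58 against 7.46 and 7.52. The other 32 lay between -0.90 and 0.21. The 21 mitotic kinases and chromosomal passenger genes had a median of -0.38, with BORA at -0.97 and MASTL at -0.86 and 0 called, and the 26 genes of the spindle checkpoint and anaphase-promoting complex a median of -0.24, with BUB1 at -0.82 and CDC27 at -0.82. Cohesin and condensin genes, which hold and compact chromosomes, had a median of -0.16 over 26 genes with 19 lower. The 41 kinesins, motors on microtubules, had a median of 0.02 with 22 higher, KIF9 among them as the 1 called. Among 27 cyclins the median was -0.02 and CCNI, an atypical cyclin, fell by 1.17 ± 0.13. The E2F and pocket protein list (median -0.23 over 18 genes) held values on both sides. The repressor E2F5 lay at 4.45 and 5.10 against 6.69 and 7.43 (2.29 ± 0.30, adjusted p = 0.0549, limma), and the pocket protein RBL2 at 6.71 and 7.11 against 5.54 and 5.95. The lamin LMNB1, which lines the inner nuclear membrane, had the lowest difference of all genes at 9.27 and 9.48 against 6.17 and 7.42, and its arrays were spread too far to pass (-2.58 ± 0.39, adjusted p = 0.068).

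Further called falls concerned chromatin, redox and signalling genes. PHF6, a chromatin reader, fell by 1.65 ± 0.14 and SPIN4 of the spindlin family by 1.41. PSIP1 (LEDGF), which tethers proteins to H3 lysine 36 methylation, lay at 5.74 and 5.81 against 4.38 and 4.61 on the called probe set. PRDX3, the mitochondrial peroxidase, was among the brightest called genes at 10.79 and 10.83 against 9.69 and 9.68. GCLM, the regulatory subunit of glutathione synthesis, fell by 1.46 ± 0.14, and NOX4, an oxidase that makes hydrogen peroxide, lay at 4.94 and 4.97 against 3.89 and 3.77. Among 21 targets of the antioxidant factor NRF2 the median was 0.11 (0.28 on H3.Y replicate 1 and -0.08 on replicate 2), with GCLM called, NQO1 at -1.01 and HMOX1 at 1.29, so the list had members on both sides. SMAD2, a TGF-beta signal transducer, fell on 1 probe set and its other probe set, which was brighter, gave 0.07. VANGL1, of planar cell polarity, fell by 1.48 ± 0.14. PPP1R14C, an inhibitor of protein phosphatase 1, fell by 1.43 ± 0.15 and TTL, which puts tyrosine back on tubulin, by 1.26. IL2RB, a cytokine receptor chain, fell by 1.46 on a probe set whose values equalled those of an unnamed one, and HLA-DPA1, an HLA class II chain, by 1.62 on 3 probe sets, a pair of which were equal. TIMMDC1, an assembly factor of respiratory complex I, fell by 1.04. The other genes called lower ran from SLC25A24 (-1.88), a mitochondrial carrier of ATP, to RNF13 (-1.11). Among them the kinase UHMK1 lay at 9.95 and 9.73 against 8.01 and 8.08, PGM2, a phosphopentomutase, at 9.14 and 9.04 against 7.31 and 7.75, and LRRC58 at 7.85 and 7.84 against 6.32 and 6.23.

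Probe sets of a gene did not always give the same difference. Of 769 genes with more than 1 probe set, 676 had probe sets with distinct values, with a median range of 0.14 between them, and 12 spanned more than 1 log2 unit. Calls fell on 10 of these genes. Of these, 2 (HLA-DPA1 and TCF19) were called on all their probe sets. The second probe set of NUCKS1, a chromatin protein, lay at 10.05 and 10.28 against 9.29 and 9.30 (-0.87), where the called one at 5.50 and 5.58 gave -1.78. PSIP1 gave -1.28 and -0.62, RBMS1, an RNA-binding protein, -1.53 and -0.88, and the synaptic vesicle gene SYT2 -1.46 and -0.35. MAGT1 was called at a level of 8.70 to 8.92 in control cells, and its other probe set lay at 1.72 to 1.79 there, at the floor of the arrays.

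Inflammatory genes were described with a list of NF-kB targets put together after the values were seen, so its counts are given without weight. Of 38 genes 29 were higher and the median was 0.26 (0.55 on H3.Y replicate 1 and 0.22 on replicate 2). In this list 1 was called and 12 were at least 2-fold higher without overlap (31.6%, against 0.836% of all genes). CCL20, a chemokine for dendritic cells and Th17 cells, lay at 5.83 and 5.99 against 8.59 and 6.90. TRAF1, an adaptor of TNF receptors, lay at 6.22 and 5.85 against 9.27 and 7.59, and PTGS2, the inducible cyclooxygenase, at 4.96 and 5.33 against 6.36 and 6.51 (1.29 ± 0.16, adjusted p = 0.0508, limma). In CCL20 and TRAF1 replicate 1 was far above replicate 2, and PTGS2 had its H3.Y arrays close together. Other members went the other way, with the monocyte chemokine CCL2 at 7.60 and 7.37 against 6.52 and 6.55 and CXCL8 at 7.30 and 7.15 against 7.14 and 6.18. Over all 40 chemokines the median was 0.06, with CCL3 called and 3 at least 2-fold higher without overlap (7.5%, against 0.836% of all genes). Interleukins and their receptors had a median of 0.01 over 83 genes, with the cytokine IL18 at 9.13 and 8.71 against 5.83 and 7.57 and the receptor chain IL2RG at 4.60 and 4.66 against 6.98 and 5.65. Markers of blood cells, 5 of 6 measured, were 3 higher and 2 lower, and their summed level was 22.4 and 21.5 on the luciferase arrays and 23.1 and 22.9 on the H3.Y arrays. PTPRC, CD3E and CD14 lay between 1.89 and 4.64, and CD68 at 8.66 and 8.37 against 9.68 and 9.24. The CCL20 promoter is shown for a match to the NF-kB motif, here on the other strand, and for TATAAA, both in capitals, at chr2:227813592-227813891 on the plus strand (RefSeq, GRCh38.p14).
CCL20: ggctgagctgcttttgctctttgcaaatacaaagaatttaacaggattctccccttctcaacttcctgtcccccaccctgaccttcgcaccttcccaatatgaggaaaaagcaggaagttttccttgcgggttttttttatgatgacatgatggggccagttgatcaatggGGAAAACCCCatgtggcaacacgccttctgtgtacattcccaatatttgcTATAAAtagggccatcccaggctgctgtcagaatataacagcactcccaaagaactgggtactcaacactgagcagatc
The NF-kB motif stood in 3.54% of the windows of the 2-fold higher genes and in 2.01% of all windows.

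Lysosomal genes leaned higher. Of 49 lysosomal hydrolases and membrane proteins 32 were higher and the median was 0.18, with 0.31 on H3.Y replicate 1 and 0.05 on replicate 2. ATP6V0D2, a subunit of the proton pump found in osteoclasts and kidney, lay at 3.91 and 4.14 against 7.65 and 6.18 (2.89 ± 0.50, adjusted p = 0.0879, limma). The hydrolase HEXA lay at 8.56 and 8.61 against 9.91 and 9.39, and the sialidase NEU1 at 8.74 and 8.79 against 10.07 and 9.55 on the brightest of its 3 probe sets. LIPA, the acid lipase, went the other way, at 7.85 and 7.96 against 5.18 and 6.23. A narrower list of lysosome biogenesis genes regulated by TFEB and TFE3 was chosen after the values were seen. Of its 40 genes 34 were higher and 0 called, with a median of 0.49 (0.73 and 0.23 on the arrays). Against 0.836% of all genes, 8 of the 40 were at least 2-fold higher without overlap. Among these were the chloride transporter CLCN7, at 7.98 and 7.78 against 9.58 and 8.86, PLEKHM1, a tether for fusion with lysosomes, at 6.65 and 6.87 against 8.89 and 7.80, and the GTPase RRAGD of amino acid sensing, at 6.90 and 7.07 against 8.64 and 7.84. TFEB itself gave 0.11 and TFE3 0.23. Autophagy genes had a median of 0.21 over 30 genes (0.23 on H3.Y replicate 1 and 0.09 on replicate 2), 0 of them called or 2-fold apart without overlap, with BECN1 at -0.90 and GABARAP at 0.84. The promoters of NEU1 and CLCN7 are shown because they hold CACGTG, the palindrome that TFEB and related factors recognise, in capitals, at chr6:31862772-31863071 on the minus strand and chr16:1474979-1475278 on the minus strand (RefSeq, GRCh38.p14).
NEU1: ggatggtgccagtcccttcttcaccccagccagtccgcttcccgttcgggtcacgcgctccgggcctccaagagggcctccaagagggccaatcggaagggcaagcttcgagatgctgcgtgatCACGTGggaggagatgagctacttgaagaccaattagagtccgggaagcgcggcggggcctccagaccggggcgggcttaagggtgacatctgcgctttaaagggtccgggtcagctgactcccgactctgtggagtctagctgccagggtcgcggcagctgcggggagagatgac
CLCN7: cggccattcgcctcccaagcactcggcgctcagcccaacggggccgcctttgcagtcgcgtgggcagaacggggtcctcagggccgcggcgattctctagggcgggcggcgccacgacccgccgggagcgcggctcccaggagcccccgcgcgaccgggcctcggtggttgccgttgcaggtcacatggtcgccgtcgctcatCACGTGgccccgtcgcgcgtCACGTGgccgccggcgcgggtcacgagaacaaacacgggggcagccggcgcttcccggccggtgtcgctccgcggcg
CACGTG stood in 31.25% of 32 windows of the lysosomal list, in 8.88% of all 14237 windows and in 7.96% of those of the 2-fold higher genes.

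Osteoclast genes, a list also chosen after the values were seen, had 15 of 17 higher and a median of 0.48 (0.28 and 0.41 on the arrays). Of them 0 were called and 6 were at least 2-fold higher without overlap (35.3%, against 0.836% of all genes). SIGLEC15, a sialic acid receptor of osteoclasts, lay at 5.49 and 5.47 against 9.15 and 7.15, and osteopontin (SPP1), a bone matrix phosphoprotein, at 8.48 and 7.42 against 10.38 and 8.99. Of the genes that define the cell type, the receptor TNFRSF11A lay at 3.70 to 3.95 and OSCAR at 4.55 to 5.02 over the 4 arrays. Cathepsin K (CTSK) lay at 3.28 and 3.61 against 3.60 and 4.25 (0.48 ± 0.28), and in all 3 the groups overlapped. ATP6V0D2, MMP9, CLCN7 and PLEKHM1 are shared with the lists above, so these counts are not separate.

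Further groups had medians on either side of 0. Targets of p53 had a median of 0.22 over 28 genes, 23 higher and 0 called. FOXO-responsive genes had a median of 0.32 over 20 genes (0.41 on H3.Y replicate 1 and 0.19 on replicate 2) with FBXO32 called, and RBL2 and the sestrin SESN3 (-0.88) were lower. Metallothioneins, which bind zinc and copper, were lower in 10 of 11 (median -0.38, with -0.23 on replicate 1 and -0.51 on replicate 2), with MT1E at -0.80 and MT1P3 at -0.69 and 0 called, and closely related members may share probe sets. Genes of sterol and fatty acid synthesis had a median of -0.22 over 26 genes, with the desaturase FADS2 at 8.74 and 8.90 against 7.69 and 7.90. Heterogeneous nuclear ribonucleoproteins, which package pre-mRNA, were lower in 17 of 20 (median -0.24). Protocadherins had a median of -0.21 over 42 genes (-0.33 and -0.13 on the arrays), with PCDHB5 at 6.50 and 7.02 against 5.07 and 5.57. Receptors of the TGF-beta and BMP family included TGFBR3 (-1.25 ± 0.16, adjusted p = 0.051, limma) and BMPR2, at 7.33 and 7.23 against 6.39 and 6.16, among 23 genes with a median of 0.06, while the ligands BMP2 (1.22) and INHBA (1.02) were at least 2-fold higher among 34 with a median of 0.09. FOS, a subunit of AP-1, lay at 10.14 and 8.58 against 7.64 and 7.34, so that the luciferase arrays were themselves far apart.

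The promoters of the 2-fold higher and lower genes were searched for 8 motifs. Windows were found for 113 of the 154 higher genes, 191 of the 226 lower genes and 14237 of all 18417 genes. TGANTCA, searched on both strands as every motif here, stood in 15.9% of the higher genes' windows (18 of 113), 4.71% of the lower genes' and 5.58% of all. Among the genes called higher they stood in 1 of 13 windows (7.69%). Over genes with a luciferase level above 6 log2 units, the shares were 17.6% (9 of 51) among the higher and 4.23% among all. Holders besides PNLIPRP3, MMP10 and IL23A included the protease inhibitor TFPI2, at 8.84 and 8.93 against 10.83 and 9.70, the integrin ITGA5, at 9.20 and 9.15 against 10.85 and 9.88, and the antimicrobial ribonuclease RNASE7, at 4.47 and 4.22 against 7.22 and 5.53. TATAAA stood in 13.3% of the higher and 8.90% of the lower genes' windows, and in 1281 of all 14237. The median ratio of observed to expected CpG was 0.65 in the higher, 0.80 in the lower and 0.77 in all windows. The letters TTTNGCGC (E2F) stood in 40.0% of 20 windows of the licensing list against 2.47% of all, and TTTGAA (CHR, a cell cycle element) in 42.9% of 28 kinetochore windows against 11.9% of all. The called and 2-fold genes were chosen by their values. The lists were chosen with earlier results of these data known, so their shares are not free of the values either. All these shares are descriptions.

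**Figure D5:**
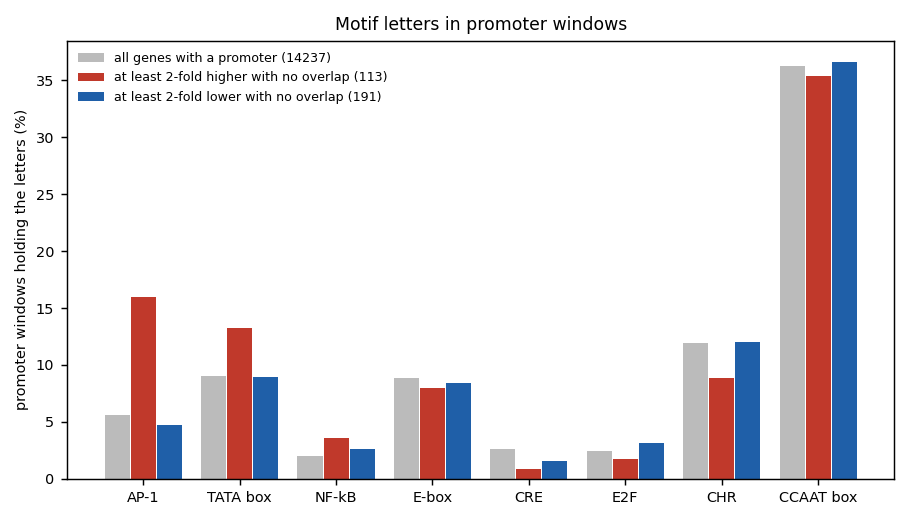
Share of promoter windows (vertical axis, percent) holding each of 8 motifs on either strand, for all 14237 genes with a window (grey), the 113 higher genes (red) and the 191 lower genes (blue), from a 300-base window. The AP-1 letters stand in 15.9% of the higher genes' windows against 5.58% of all, and CCAAT in 35.4% against 36.3%.

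Beside these values stand those of the combined knockdown, which was compared with the same luciferase arrays and so is not independent. MMP1 lay 3.10 above luciferase after H3.Y siRNA and at -1.30 in the combined knockdown, CCL3 at 3.73 and 0.78, and PKIA at 2.73 and -0.83. FBXO32 lay at 2.01 and 2.32. RPN1 lay at -2.09 and 0.32, COPS2 at -1.76 and -0.02 and NSL1 at -1.70 and -1.12. SIGLEC15 lay at 2.67 and 0.08, ATP6V0D2 at 2.89 and 0.28 and LMNB1 at -2.58 and -0.34. List medians after H3.Y siRNA and in the combined knockdown were -0.43 and -0.49 for origin licensing and -0.40 and -0.42 for kinetochore genes. For p53 targets they were 0.22 and 0.27. Among lists with a median of at least 0.2 either way, only the protocadherins had opposite signs, at -0.21 and 0.40. The difference between the knockdowns was not tested for these genes or lists.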

How the data were processed

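Total RNA of U2OS cells was hybridised to Affymetrix arrays, 2 per group, per the labels. The authors deposited log2 values per probe set for which the submitters' processing notes name the package oligo. The log base follows from the range of the values. Neither the summarisation nor a genome build is given in the sources used here. Values were used as deposited, so a change of all transcripts alike would not show. Probe sets were named from the platform's annotation, with symbols updated through RefSeq (GRCh38.p14). Probe sets with several symbols or none were tested and not named.

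The test was limma 3.58.1 (R 4.3.3) on all 6 arrays, 1 mean per group (3 residual and 3.43 prior degrees of freedom), with Benjamini-Hochberg adjustment over 33297 probe sets, and the procedure was tested on simulated data. Each value after ± is limma's SE from this fit, with the spread drawn from all 6 arrays and the prior. The 2 arrays per group limit the precision. Deviations of arrays with the same replicate number correlated at 0.12 to 0.28 over the 3 pairs of groups, and although the labels do not say what a number marks, the calls lost with the number as a block are named. Lists used 1 probe set per gene, with no set test. Named genes were called genes and, in each list, up to 4 called members, up to 4 at least 2-fold apart without overlap, or else the 2 farthest from 0, beside marker genes; partners and other members named beyond this were added after their values were seen. Members and lists were chosen with earlier results of these data known. Promoter windows of 300 bases came from RefSeq. Alternatives were a replicate block, fewer arrays, renormalization, a level filter, another variance prior, a 1.5-fold minimum and all probe sets of a gene.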

Additional observations from a re-analysis of the deposited data

How the results depend on the processing

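With 2 arrays per group the counts of calls were not stable. The main counts were 28 probe sets called higher and 65 lower. A filter to probe sets above the median level gave 152 and 388, a trended and robust variance prior 58 and 151, and a fit without the combined knockdown arrays 0 and 0 (3709 at an unadjusted p under 0.05, limma). Leaving out each array in turn gave 0 to 256 higher and 0 to 373 lower. Groups with the same replicate number were fitted with the number as a block, which gave 20 higher and 48 lower, 53 of these among the 93. At least 2-fold higher without overlap were 141 probe sets under the level filter against 239. A 1.5-fold minimum gave 1051 probe sets and 667 genes higher and 1494 probe sets and 902 genes lower. Without each array in turn, the 2-fold counts were 316 to 512 probe sets and 94 to 347 genes higher, and 384 to 870 probe sets and 158 to 416 genes lower. Lists with a median at or under -0.2 numbered 12 to 22 and at or over 0.2 numbered 0 to 6. The 0 came without H3.Y replicate 1 and the 6 without H3.Y replicate 2, against 4 in the main setting. Median centring and renewed quantile normalization kept every count within 1.5 times. The share of higher genes' promoters with TGANTCA ran from 12.3% to 17.5%.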
